A study of Rattus norvegicus with 12 samples.

Results

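Mitochondrial ribosomal proteins were followed across 12 arrays of cultured rat hippocampal neurons. The members were all probes of the array whose platform gene symbol starts with Mrpl or Mrps and a digit, without the symbols marked -ps. This gave 59 probes of 22523, 1 probe for each of 59 genes out of 13337 named on the array. Of all probes, 13793 carried a symbol and 8730 did not, and an unnamed probe could not be chosen by this rule. A probe was tested when its detection p was under 0.01 on at least 2 of the 12 arrays, which kept 11792 probes in all and 56 of the 59 members. Mrpl14, Mrpl30 and Mrps31 were not detected on any array and were not tested.

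Mitochondria keep a ribosome of their own, which makes the few proteins encoded in mitochondrial DNA, nearly all of them subunits of the respiratory chain. Its RNAs are transcribed inside the organelle, whereas all of its proteins are encoded in the nucleus, made in the cytosol and imported. Some of these proteins have a counterpart in the bacterial ribosome and the others are found only in mitochondria, and neurons rely on the respiratory chain for the energy that synaptic transmission uses.

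The study asked which transcripts changed after a short burst of synaptic activity, and which did so while transcription was blocked. Hippocampal cells of Sprague Dawley rats at embryonic day 18.5 were grown for 12 days atop a glial layer, and 3 coverslips were pooled for each sample. All cultures, controls included, spent 3 h in blockers of glutamate receptors and of action potentials (D-APV, CNQX and TTX). Gene expression was then read on Illumina RatRef-12 arrays at 3 harvests. Block cultures stayed in the blockers. Activity cultures had them washed out and received 50 µM bicuculline, which blocks inhibitory GABA receptors, with 500 µM 4-aminopyridine, which blocks potassium channels (BiC/4-AP), for 5 min. Block+ActD and Activity+ActD cultures were given 25 µM actinomycin D, an inhibitor of transcription, from shortly before the stimulus onwards, and the other cultures were given its solvent. Cells were harvested at the end of the 5 min stimulus or 30 or 60 min after it. Each of the 12 combinations had 1 array, all with the replicate number 3, so harvests stood in for replicates when treatments were compared, and treatments when harvests were compared. The p-values therefore rest on the spread between such arrays, which may be technical in part.

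Promoter windows from RefSeq (rat assembly GRCr8), running from 250 bases before to 50 bases after the start of each gene, were found for 48 of the 59 members. The members without one were Mrpl13, Mrpl15, Mrpl16, Mrpl19, Mrpl21, Mrpl35, Mrpl43, Mrps12, Mrps24, Mrps34 and Mrps35. The windows were searched on both strands for 6 strings of letters known from factors that act on nuclear genes for mitochondrial proteins, and 3 strings are given here, chosen after their counts were seen. The NRF-1 string, in which GCGCA and GCGC flank any 1 base, was present in 8 of 48 members (16.7%) and in 6.2% of the windows of all 19005 coding genes. The ETS string CCGGAAGT, bound by the GABP factor, was present in 8 members (16.7%) against 5.12%, and the YY1 string, AAGATG followed directly by GCGGC, in 7 (14.6%) against 1.1%. At least 1 of these strings stood in 21 members (43.8%) and in 11.6% of coding genes. The 6 windows below each show 30 bases, 5′ to 3′ on the strand of the gene, for members whose levels are described further on, with the matched letters in capitals. They were picked after the matches and levels were known, and a match describes the letters only.
Mrpl17, NRF-1, chr1:169575735-169575764 (-): aggctctgatGCGCATGCGCaagcacccct
Mrpl32, NRF-1, chr17:55260579-55260608 (+): tttgacctgtGCGCATGCGCagggaacctg
Mrps18c, ETS as its reverse complement, chr14:9123028-9123057 (-): tgtgtcacgtgACTTCCGGcccggggagcg
Mrpl53, ETS, chr4:117172976-117173005 (+): cccggaggccaCCGGAAGTctgtttcaata
Mrps10, YY1, chr9:21122404-21122433 (-): tcagggcaccAAGATGGCGGCgcgcgcagc
Mrps30, YY1, chr2:52195866-52195895 (-): cggaggacaAAGATGGCGGCtgccaggtat
Relative to the annotated start, the matched letters began at -55 in Mrpl17, -62 in Mrpl32, -140 in Mrps18c and -56 in Mrpl53, and at 30 in Mrps10 and 18 in Mrps30, so the YY1 letters lay past the start.

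The 4 arrays of the 5 min harvest stood apart from the 8 later ones in their markers of cell types. All 8 neuronal markers listed were detected, and their summed normalized level was 48459 to 57193 at 5 min and 60181 to 74890 later. Markers of microglia summed to 999 to 1654 at 5 min and to 91.2 to 135 later. C1qa, C1qb, Ctss, Fcgr3a, Itgam and Tyrobp, which mark microglia, were detected at 5 min only, and Ptprc on no array. Markers of fibroblasts and vessels summed to 1309 to 1596 at 5 min and to 779 to 1313 later, and those of astrocytes to 43815 to 50540 and to 39767 to 47212. Total intensity per array was 10858200 to 13824800 and 9751 to 11032 probes were detected on each. The lowest counts were those of the 5 min arrays with actinomycin D, 9751 in Block+ActD and 10001 in Activity+ActD. Their partners without it, Block and Activity at 5 min, had 10484 and 10468. The part of this gap in the differences with actinomycin D was not tested. The harvest time and any other difference between the cultures taken at 5 min and those taken later cannot be told apart. Where a member is said below to have risen, fallen or peaked between harvests, cultures of different harvests are compared, not 1 culture followed over time. The number of arrays limits the precision of every value that follows.

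All levels below are normalized log2 intensities, so that a difference of 1 is a doubling, and levels of single probes were not set against each other. Of the 56 tested members, 55 were detected on all 12 arrays and Mrps15, the counterpart of a small-subunit protein that binds ribosomal RNA early in assembly, on 10. The range of a member over the 12 arrays had a median of 0.53, against 0.75 over all tested probes. The members were brighter, however, with a median level per array of 10.00 to 10.43, beside 7.11 to 7.12 over all tested probes. The part of this gap in their smaller range was not tested. Its part in the shares set beside all tested probes below was not tested either. Mrpl37 and Mrps33 kept within 0.22 and 0.23. Ranges over 1 were found in 4 members, namely Mrps10 (2.02), Mrpl28 (1.12), Mrps34 (1.09) and Mrpl18. Harvest accounted for a median of 52.4% of the variance of a member, actinomycin D for 6.47%, its interaction with harvest for 10.5% and BiC/4-AP for 1.06%. Over all tested probes, these shares were 50.8%, 5.73%, 9.13% and 1.78%. The rest, a median of 17.1% in members and 18.5% over all tested probes, included the interaction of BiC/4-AP with actinomycin D. The member median difference with BiC/4-AP was 0.07 without actinomycin D and -0.05 with it. Such opposite effects cancel in the BiC/4-AP share, which need not hold all of the variance that went with BiC/4-AP. Terms with harvest had more levels than the others, so the shares are not directly comparable.

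**Figure D1:**
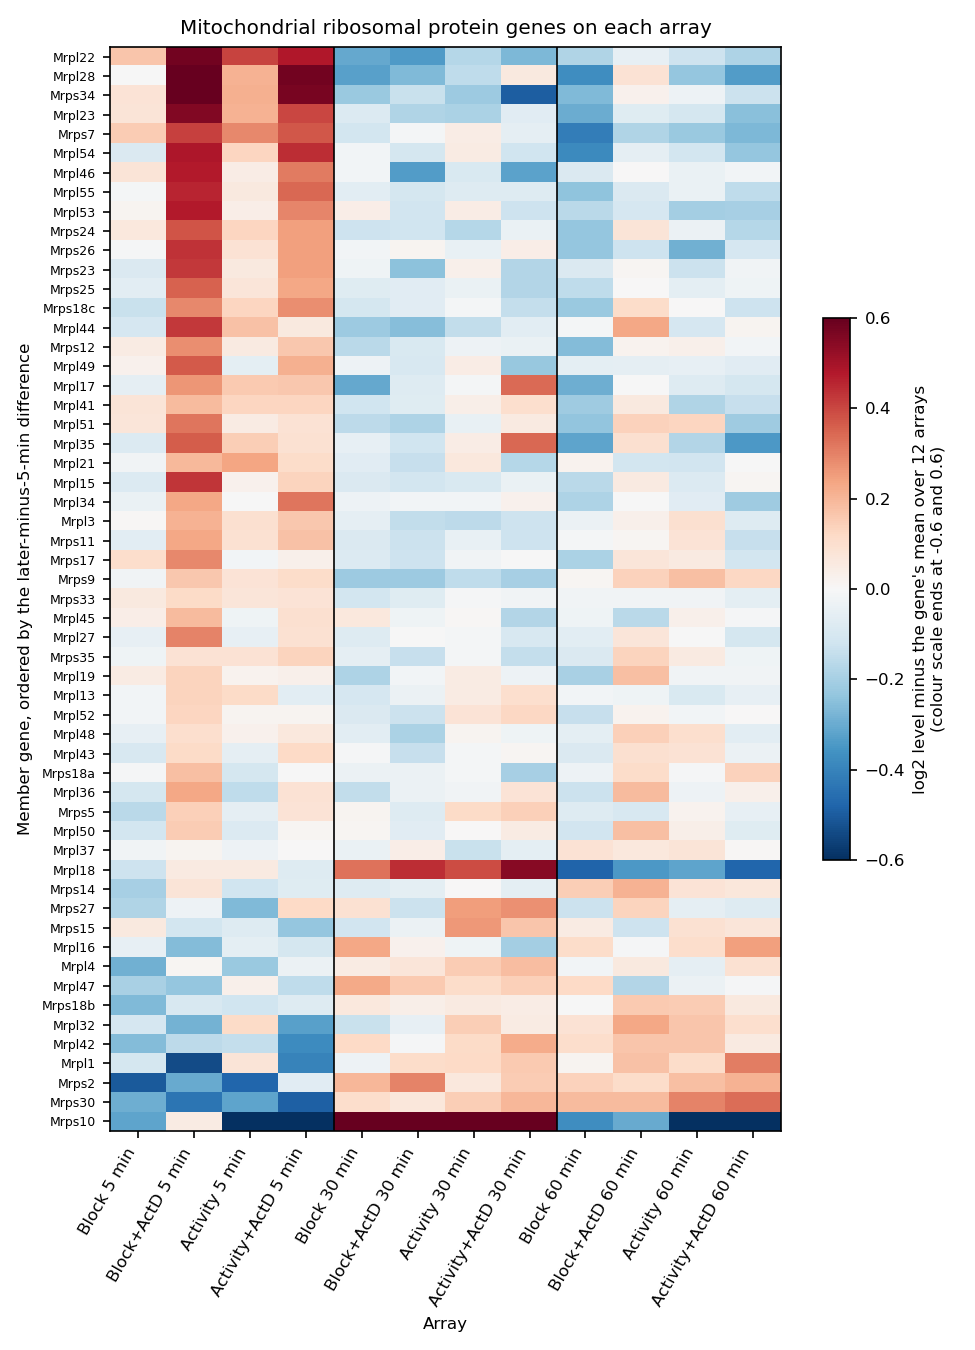
Each row is 1 of the 56 tested member genes and each column 1 array, and the colour gives the normalized log2 level minus the mean of that gene over the 12 arrays, with a scale that ends at -0.6 and 0.6. Most rows are red on the arrays of 5 min and darkest on the 2 with actinomycin D, Mrps30 and Mrps2 at the bottom run the other way, and Mrps10 and Mrpl18 are high at 30 min only.

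Of the mitochondrial ribosomal proteins, 40 had a negative and 16 a positive difference at 30 and 60 min against 5 min. Of these 56 tested members, 31 passed the test (limma, Benjamini-Hochberg adjusted p under 0.05 over all tested probes), 9 higher and 22 lower. This was 55.4% of members beside 49.3% of all tested probes, of which 25.9% were higher and 23.4% lower. The median difference was -0.12 over members and -0.01 over all tested probes, 48.7% of which had a positive difference. The share of members called either way was therefore close to that of the array, and lower calls outnumbered higher ones, which held with median scaling and turned on the table scaled to equal totals (13 higher and 9 lower).

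Among small-subunit proteins with a bacterial counterpart, 3 rose and 4 fell of 13. Mrps7, whose bacterial counterpart organizes the head of the small subunit, read 11.62, 11.88, 11.75 and 11.84 at 5 min (in the order Block, Block+ActD, Activity, Activity+ActD, which is kept below), 11.36, 11.45, 11.51 and 11.41 at 30 min, and 11.05, 11.29, 11.24 and 11.20 at 60 min. All 8 later arrays lay below all 4 arrays of 5 min, and those of 60 min below those of 30 min. Its difference was -0.46 ± 0.05 (SE of the limma fit, 8 arrays against 4, adjusted p = 8.69e-06). Mrps2, the counterpart of bacterial S2, ran the other way, from 7.05, 7.25, 7.08 and 7.48 at 5 min to between 7.61 and 7.85 on the later arrays. It rose by 0.51 ± 0.09 (adjusted p = 0.000389), with no overlap. Of the 3 paralogues of bacterial S18, Mrps18b rose by 0.21 ± 0.05 (adjusted p = 0.00419), Mrps18c fell by 0.21 ± 0.07 (adjusted p = 0.0228), and Mrps18a, which sits in the large subunit, differed by -0.03 ± 0.06 and did not pass.

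Of the 7 tested small-subunit proteins found only in mitochondria, 5 fell and none rose. Mrps34, whose loss destabilizes the small subunit in human and mouse cells, read 9.16, 9.68, 9.29 and 9.65 at 5 min, 8.86, 8.94, 8.86 and 8.58 at 30 min, and 8.81, 9.10, 9.05 and 8.95 at 60 min. It fell by 0.55 ± 0.09 (adjusted p = 0.000294), again with no overlap between the harvests. Mrps26, Mrps25, Mrps33 and Mrps23 also fell, by 0.28, 0.22, 0.12 and 0.24.

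In the large subunit, 4 of the 20 tested proteins with a bacterial counterpart rose and 7 fell. Mrpl22, whose bacterial counterpart lines the tunnel through which the new protein leaves, read 10.51, 10.93, 10.75 and 10.83 at 5 min and between 10.01 and 10.30 later. It fell by 0.61 ± 0.07 (adjusted p = 9.32e-06). Mrpl23, the counterpart of a protein at the mouth of that tunnel, fell by 0.47 ± 0.08 (adjusted p = 0.000277), and Mrpl28 by 0.58 ± 0.11 (adjusted p = 0.000551). Of the 16 large-subunit proteins found only in mitochondria, 2 rose and 6 fell. Mrps30, which belongs to the large subunit in spite of its name, read 10.28, 10.13, 10.26 and 10.09 at 5 min, 10.68, 10.64, 10.72 and 10.77 at 30 min, and 10.77, 10.77, 10.87 and 10.91 at 60 min. It rose by 0.58 ± 0.06 (adjusted p = 4.66e-06), every later array being above every array of 5 min. Mrpl42 rose by 0.35 ± 0.07 (adjusted p = 0.000545).

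**Figure D2:**
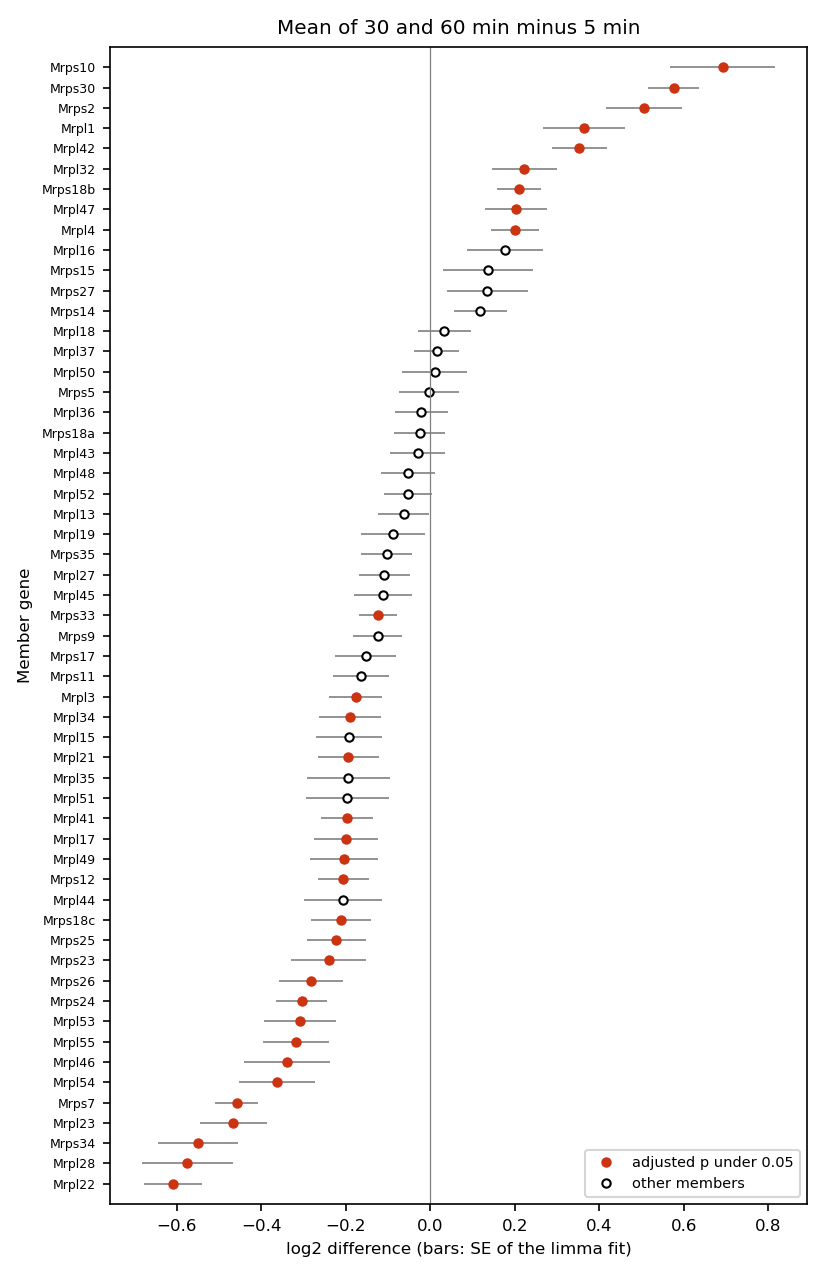
The x axis gives the log2 difference of the 8 arrays of 30 and 60 min from the 4 arrays of 5 min, the y axis names the 56 tested members, bars are the SE of the limma fit and filled points passed the test. Filled points number 9 on the right and 22 on the left, from Mrps10 at 0.69 to Mrpl22 at -0.61.

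The 8 later arrays did not overlap the 4 of 5 min in 4 members that were higher (Mrps30, Mrps2, Mrpl42 and Mrps18b) and in 8 that were lower (Mrpl22, Mrpl23, Mrpl46, Mrpl55, Mrps12, Mrps33, Mrps34 and Mrps7). Over all tested probes the shares were 12.9% and 12.4%, and over members 7.14% and 14.3%. Over the same arrays the 8 tested microglial markers were all lower, with a median difference of -1.69, and the 8 neuronal markers were all higher, with a median of 0.43. The 6 tested markers of fibroblasts and vessels were mixed, 2 higher and 4 lower, with a median of -0.50. Their part in the members' differences was not tested, and in pooled cultures a loss of cells of 1 type cannot be told apart from less RNA per cell. Cytosolic ribosomal proteins, listed for comparison, had a median of -0.14 with 5 probes of 62 higher and 29 lower, and subunits of oxidative phosphorylation a median of 0.00 with 15 of 57 higher and 14 lower.

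The balance of calls in this comparison moved with the scaling. On the authors' table scaled to equal totals, these 13 and 9 calls were 39.3% of members beside 48.9% of all tested probes, with medians of -0.02 and 0.06, and with median scaling 5 were higher and 18 lower (41.1% beside 46.0%, medians -0.14 and 0.01). The member median thus lay below that of all probes under each scaling. The count of 31 fell to 15 (26.8% of members, beside 40.2% of all tested probes) without the Block+ActD array of 5 min, to 19 (33.9% beside 41.1%) without the Activity+ActD array of 5 min and to 15 (26.8% beside 36.7%) without the 60 min harvest. In these settings the share of members called was below that of all probes. Among probes detected on all 12 arrays it was 58.2% beside 55.5%. Mrps30, Mrps7, Mrpl22, Mrpl23, Mrps34, Mrps2, Mrpl42, Mrpl28 and Mrps24 kept their direction and passed the test under every alternative run.

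Between 60 and 30 min few members differed, and the largest differences of the whole set were found there in Mrps10 and Mrpl18. The test was passed by 4 members of 56 (7.14%), 1 higher and 3 lower, beside 6.47% of all tested probes, 2.89% higher and 3.58% lower. Mrps10, the counterpart of bacterial S10 in the head of the small subunit, read 6.51, 6.88, 5.89 and 6.18 at 5 min, 7.91, 7.75, 7.88 and 7.73 at 30 min, and 6.46, 6.52, 6.11 and 6.09 at 60 min. It was high on all 4 arrays of 30 min and low on all others. From 30 to 60 min it fell by 1.52 ± 0.14 (SE, 4 arrays against 4, adjusted p = 2.48e-05). In the deposited intensities, before any correction, it read 244.7 to 273.0 on the arrays of 30 min, 99.7 to 142.6 on those of 5 min and 96.0 to 129.2 on those of 60 min. The median intensity of an array was 60.5 to 73.7, so Mrps10 was dim at 5 and 60 min. Because of this peak, its rise of 0.69 ± 0.12 in the later harvests against 5 min rested on the 30 min arrays and was -0.07 without them.

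Mrpl18, whose bacterial counterpart holds the 5S ribosomal RNA in the large subunit, showed the same order of harvests between 30 and 60 min. It read 9.85, 10.03, 10.03 and 9.90 at 5 min, 10.30, 10.42, 10.37 and 10.52 at 30 min, and 9.50, 9.63, 9.66 and 9.50 at 60 min. The 3 harvests did not overlap, with 30 min the highest and 60 min the lowest. The fall from 30 to 60 min was 0.83 ± 0.07 and adjusted p = 1.44e-05 by limma. Harvest accounted for 94.9% of its variance and for 89.2% of that of Mrps10.

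The other calls between 60 and 30 min were smaller. Mrps9, whose bacterial counterpart reaches the tRNA in the peptidyl site, rose by 0.31 ± 0.07 (adjusted p = 0.0126), from 9.60, 9.60, 9.67 and 9.62 to 9.83, 9.96, 10.00 and 9.95. Mrps7 fell by 0.24 ± 0.06 (adjusted p = 0.0265). The 4 arrays of 60 min did not overlap those of 30 min in 2 members that were higher (Mrps9 and Mrps14, 3.57%, beside 7.71% of all tested probes). They did not overlap in 4 that were lower (Mrpl18, Mrps10, Mrps26 and Mrps7, 7.14%, beside 7.83%). The count of 4 fell to 2 when the Activity array of 30 min or any of the Block+ActD, Activity and Activity+ActD arrays of 60 min was left out. This was 3.57% of members, beside 3.76% to 4.34% of all tested probes. Mrps10 and Mrpl18 passed under every alternative run.

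**Figure D3:**
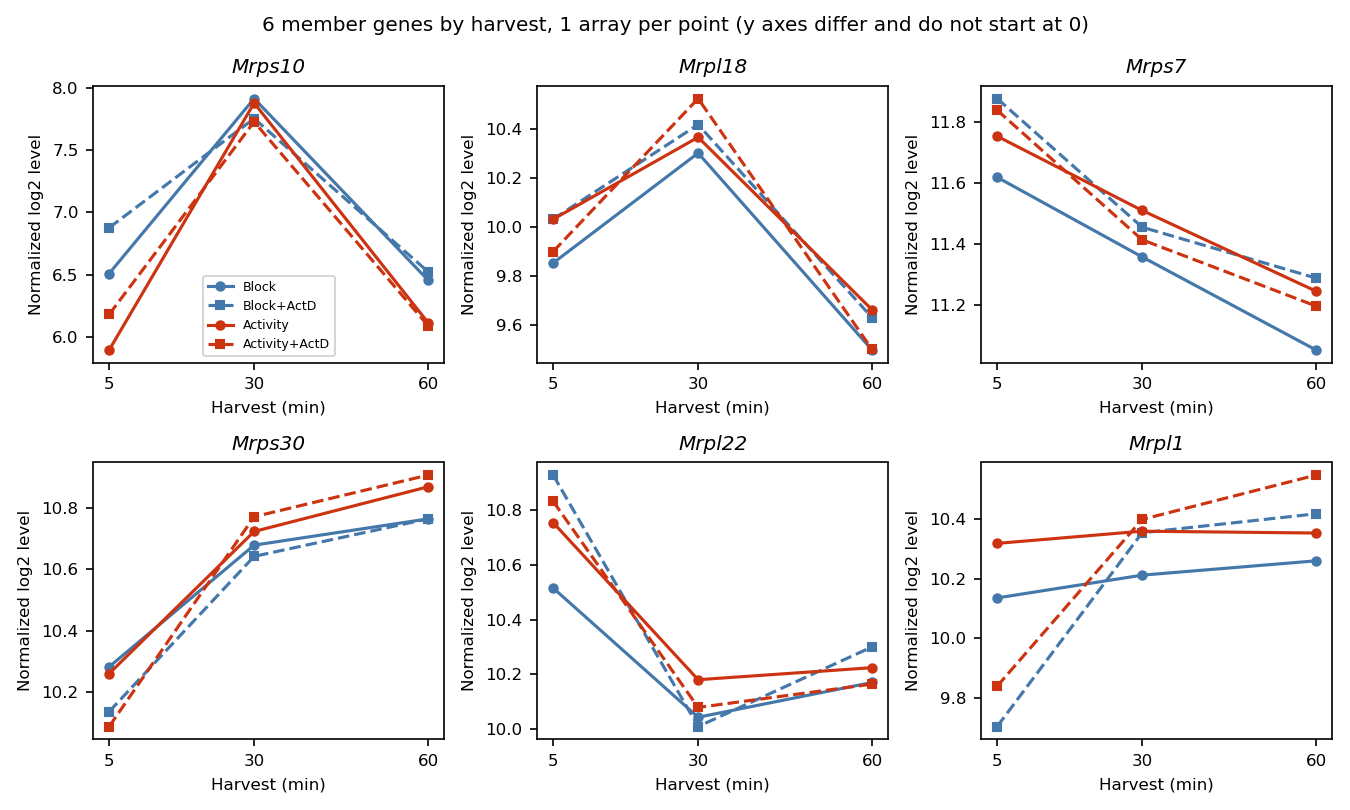
Normalized log2 level (y axis, which differs between panels and does not start at 0) against harvest in minutes (x axis) for 6 members, 1 array per point, with lines joining the arrays of a treatment. Mrps10 and Mrpl18 peak at 30 min in all 4 treatments, Mrps7 and Mrpl22 fall and Mrps30 rises after 5 min, and Mrpl1 is low only on the 2 arrays of 5 min with actinomycin D.

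Members were also set beside the genes that start next to them. Starts of opposite direction within 1000 bases were found for 15 of the 48 members with a window (31.2%) and for 7.22% of coding genes, Mrps10 not being among them. In 8 members the neighbour was tested too, which made 7 pairs. Mrpl18 starts 425 bases from Tcp1, which encodes a subunit of the cytosolic chaperonin, and Tcp1 differed by 0.07 ± 0.06 between 60 and 30 min (adjusted p = 0.625, limma), where Mrpl18 fell by 0.83. Mrps7 starts 269 bases from Gga3, a sorting adaptor of the Golgi, which differed by -0.01 ± 0.08 between the later harvests and 5 min (adjusted p = 0.957), where Mrps7 fell by 0.46. Mrpl46 and Mrps11, both members, start 234 bases apart. Mrpl46 fell by 0.34 ± 0.10 (adjusted p = 0.013) in the later harvests, and Mrps11 differed by -0.16 ± 0.07 and did not pass (adjusted p = 0.0537). Mrps18b starts 588 bases from Ppp1r10, a regulatory subunit of protein phosphatase 1, which fell by 0.26 ± 0.09 in the later harvests (adjusted p = 0.0255), where Mrps18b rose by 0.21. In the other 3 pairs the neighbour did not pass in the later harvests, with -0.06 for Psma2 beside 0.22 for Mrpl32, 0.05 for Ndufb5 beside 0.20 for Mrpl47 and 0.16 for Ncapd2 beside -0.20 for Mrpl51.

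At 5 min, 15 mitochondrial ribosomal proteins were called higher with actinomycin D than without it and 2, Mrpl1 and Mrpl32, lower, while only 2 and 0 higher calls were made under the 2 other scalings tried. This comparison was chosen after seeing the data. It was fitted with both stimuli together, so that 2 arrays with actinomycin D stood against 2 without. Of the 56 tested members, 48 had a positive and 8 a negative difference, with a median of 0.18, beside 57.9% of all tested probes, with a median of 0.06. By limma, the 17 members that passed (30.4%) stood beside 20.4% of all tested probes, 7.95% higher and 12.4% lower. Positive calls numbered 1 of 13 and 3 of 7 among small-subunit proteins with and without a bacterial counterpart, and 7 of 20 and 4 of 16 in the large subunit.

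In the small subunit, Mrps34 was higher with actinomycin D by 0.44 ± 0.11 (adjusted p = 0.01), Mrps23 by 0.35, Mrps25 by 0.29 and Mrps18c by 0.28. Mrps18c read 10.14 and 10.41 without the inhibitor and 10.57 and 10.56 with it. In the large subunit, Mrpl28 read 8.38 and 8.59 without it and 9.12 and 8.96 with it, a difference of 0.56 ± 0.14 (adjusted p = 0.0102). Both arrays with actinomycin D lay above both without it in these 2 genes. Mrpl54, Mrpl55, Mrpl53 and Mrpl49, all found only in mitochondria, were higher by 0.44, 0.38, 0.35 and 0.31. Mrpl54 read 10.21 and 10.43 without the inhibitor and 10.79 and 10.75 with it (adjusted p = 0.00362).

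Mrpl1 was the member that departed most clearly from this pattern. Its bacterial counterpart forms the mobile stalk by which spent tRNA leaves the ribosome. At 5 min it read 10.13 and 10.32 without actinomycin D and 9.70 and 9.84 with it, a fall of 0.46 ± 0.08 (adjusted p = 0.000836). On the 8 later arrays it kept between 10.21 and 10.55, so the 2 arrays of 5 min with actinomycin D were its lowest of all 12. Mrpl32, which in yeast and mouse is cleaved by a protease of the inner membrane before it joins the ribosome, fell from 9.54 and 9.76 to 9.35 and 9.31, by 0.31 ± 0.09 (adjusted p = 0.0241). Mrps30 differed by -0.16 ± 0.08 and did not pass.

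**Figure D4:**
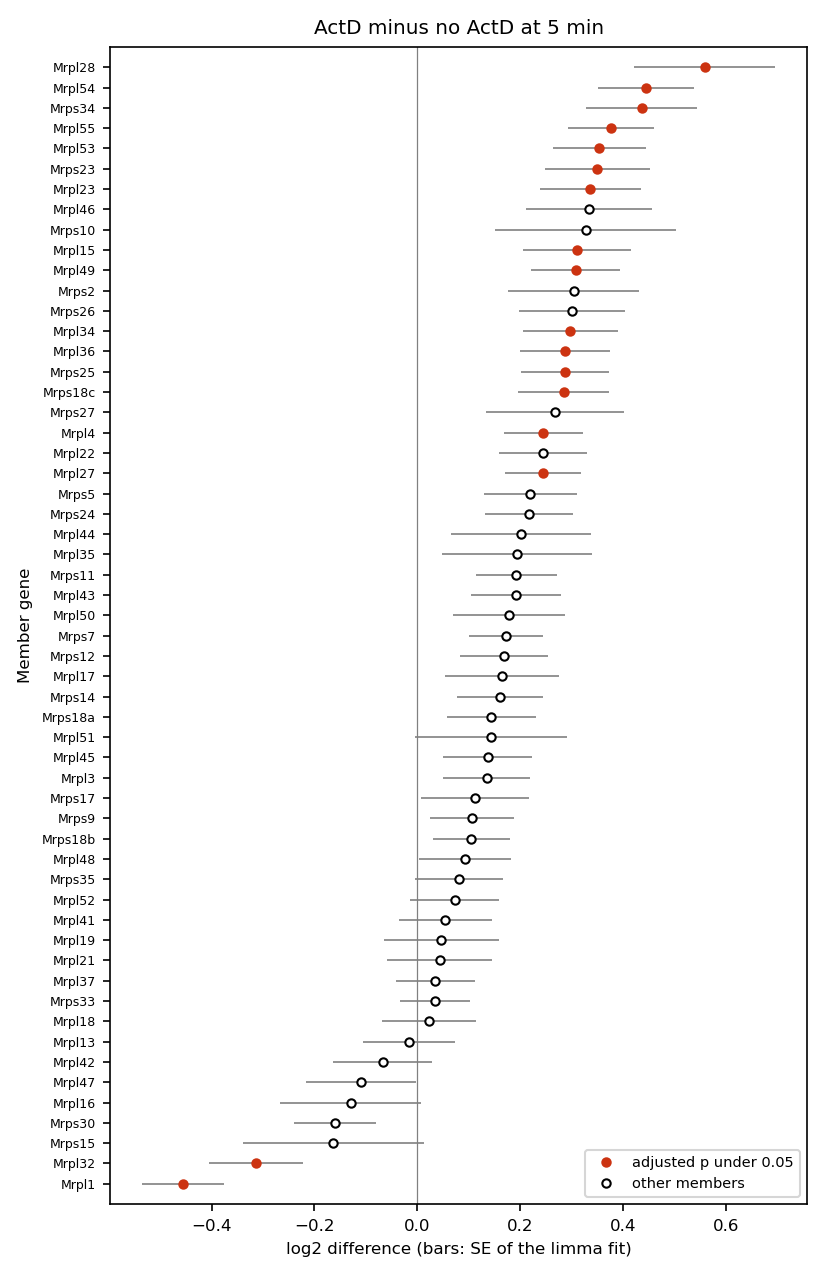
The x axis gives the log2 difference of the 2 arrays of 5 min with actinomycin D from the 2 without it, the y axis names the 56 tested members, bars are the SE of the limma fit and filled points passed the test. Of the filled points 15 lie to the right of 0, up to Mrpl28 at 0.56, and 2 to the left, Mrpl32 at -0.31 and Mrpl1 at -0.46.

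The pairs of arrays behind these values differed in size. With actinomycin D at 5 min, the member median was 0.25 in Block cultures (50 members higher) and 0.09 in Activity cultures (42 higher), beside 0.07 and 0.03 over all tested probes. Both pairs were positive in 42 of 56 members, a larger share than the 40.7% of all tested probes. Both were negative in 6 of 56, a smaller share than the 29.6% of all tested probes. The 2 arrays with the inhibitor did not overlap the 2 without it in 38 members that were higher (67.9%, beside 35.5% of all tested probes) and in 5 that were lower, Mrpl1, Mrpl16, Mrpl32, Mrps15 and Mrps30 (8.93%, beside 26.1%). Cytosolic ribosomal proteins had a median of 0.09, with 5 probes of 62 called higher and 1 lower, and subunits of oxidative phosphorylation a median of 0.13, with 9 of 57 higher. The neuronal markers had a median of -0.17 in this comparison, with 1 called higher and 2 lower (among Syt1, Snap25 and Syp), and the microglial markers a median of 0.26 with none called. Of 6 astrocyte markers, 3 were called, all lower (Aqp4, Gja1 and Slc1a3, list median -0.09). Of 6 markers of fibroblasts and vessels, Lum was called lower (list median -0.18). Among 8 markers of the oligodendrocyte lineage, Pdgfra was called lower and Cspg4 higher (list median 0.21). Their part was not tested.

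The direction of the calls at 5 min changed with the scaling. On the table scaled to equal totals, 2 members were called higher and 3 lower (8.93%, beside 14.2% of all tested probes), and the medians were 0.07 over members and 0.03 over all tested probes. With median scaling, 0 were called higher and 4 lower (7.14% beside 18.2%), and these medians were 0.04 and -0.06, so the whole array shifted by over 0.1 between scalings and the member median stayed above that of all probes. Leaving out 1 of the 4 arrays of 5 min left 2 (without Block), 3 (without Block+ActD), 2 (without Activity) or 4 (without Activity+ActD) members called, in fits where the lone array is taken to vary like the others. These were 3.57%, 5.36%, 3.57% and 7.14% of members, beside 9.95%, 7.96%, 9.72% and 9.50% of all tested probes. The share of members called was thus above that of all probes with all arrays, quantile scaling and a variance trend, and below it under both other scalings, without a variance trend (10.7% beside 15.97%) and without any 1 of these 4 arrays. Mrpl1 passed in every one of these fits. Among probes detected on all 12 arrays, 34.5% of members were called, beside 26.0% of probes.

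Genes that serve the mitochondrial ribosome were read from lists in the same comparison. Of 18 tested genes for its assembly and the modification of its RNA, 15 had a positive difference (median 0.15), yet the only ones called were lower, Mterf3 by 0.65 ± 0.12 and Fastkd2 by 0.39 ± 0.12 (adjusted p = 0.00136 and 0.0343, limma), which are needed for the large subunit in mouse and human cells. Of 9 genes listed with the translation factors, Mtif2, the initiation factor that brings the first tRNA, fell by 0.59 ± 0.12 and Guf1 by 0.50 ± 0.10. Tufm, the elongation factor that delivers tRNA, rose by 0.24 ± 0.08. Pnpt1, in this list but a polynucleotide phosphorylase and not a translation factor, fell by 0.66 ± 0.10. None of 12 mitochondrial aminoacyl-tRNA synthetases passed (median 0.16, 10 positive). Of 17 genes for mitochondrial transcription and RNA, 2 were higher and 3 lower (median 0.01), Mterf1 by -0.90 ± 0.10 and Mtpap, the mitochondrial poly(A) polymerase, by -0.64 ± 0.13. Of 5 ribosomal subunits under other names, Ptcd3 was called, by -0.32 ± 0.11. Among the activators of nuclear genes for mitochondria, Yy1 and Gabpa fell by 0.55 ± 0.16 and 0.62 ± 0.20 (adjusted p = 0.0284 and 0.0356).

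In the later harvests the difference with actinomycin D was smaller, and in 6 members the difference between late and early effect passed the test. Over the 56 members the late effect minus that of 5 min had a median of -0.14, beside -0.05 over all tested probes. Mrpl54 (-0.46 ± 0.11), Mrps34 (-0.43 ± 0.13), Mrpl53 (-0.42 ± 0.11), Mrpl49 (-0.40 ± 0.11) and Mrpl55 (-0.38 ± 0.10) were lower, and Mrpl1 was higher by 0.59 ± 0.10 (adjusted p = 0.00114). This was 10.7% of members beside 9.3% of all tested probes, 7.56% higher and 1.75% lower. In Mrpl1, actinomycin D lowered the level by 0.43 in Block and 0.48 in Activity cultures at 5 min, while the 4 later pairs differed by between 0.04 and 0.19 upwards.

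The calls other than Mrpl1 did not hold in all settings. The table scaled to equal totals left 2 members called, both higher (3.57%, beside 9.06% of all tested probes), and median scaling 3, all higher (5.36% beside 17.0%), with medians of 0.09 over members and 0.14 over all tested probes. Leaving out 1 of the 4 arrays of 5 min, which leaves 1 array on a side, gave member medians of -0.19 to -0.12. These medians do not show whether the calls of single members held. Without a variance trend Mrpl1 alone was called (1.79% of members, beside 5.70% of all tested probes). The count was 1 without the Block array of 30 min (1.79%, beside 5.92% of all tested probes) and 2 without the Activity array of 30 min (3.57% beside 6.58%). It was 1 without the 30 min harvest (1.79% beside 6.06%) and 3 without the 60 min harvest (5.36% beside 4.44%). Mrpl1 passed in each setting with a count.

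Over all 3 harvests and both stimuli, actinomycin D gave no call among members or other probes (0% called), although 7 members and 2167 probes of 11792 had an unadjusted limma p under 0.05, and a robust variance estimate also gave 0. The 7 were all higher. A positive difference was found in 47 of 56 members, with a median of 0.06, beside 0.03 over all tested probes with 56.9% positive. Mrpl36, the counterpart of a small bacterial large-subunit protein, differed by 0.19 ± 0.06 (adjusted p = 0.175) and was higher with the inhibitor in all 6 pairs of arrays, as were Mrpl4 and Mrps26 (3 of 56 members, beside 3.87% of all tested probes, and 0 lower in all pairs, beside 2.41%). It read 10.60 and 10.94, 10.56 and 10.80 at 5 min, 10.57 and 10.67, 10.69 and 10.79 at 30 min, and 10.58 and 10.90, 10.68 and 10.74 at 60 min, without and with the inhibitor in Block and then in Activity cultures. No member kept the 4 later arrays with actinomycin D apart from the 4 without it, beside 1.32% of all tested probes higher and 0.865% lower. The member median was 0.01 without the 5 min harvest. With the Block+ActD array of 30 min left out Mrpl36 and Mrpl28, 2 members, passed (3.57%, beside 5.12% of all tested probes).

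BiC/4-AP moved the mitochondrial ribosomal proteins by little, and no member passed the test. Without actinomycin D, the Activity minus Block difference over the 3 harvests had a median of 0.07 over members, 46 of 56 being positive, beside 0.01 over all tested probes with 53.2% positive. By limma 0 members and 0 of 11792 probes were called (0%), with 2 members and 884 probes at an unadjusted p under 0.05 and 0 by the robust variance estimate. The lowest p among members belonged to Mrpl17, at 0.24 ± 0.10 (adjusted p = 0.654), which read 10.64 against 10.85 at 5 min, 10.38 against 10.68 at 30 min and 10.40 against 10.62 at 60 min, and so was higher with BiC/4-AP in all 3 pairs. Mrps7 differed by 0.16 ± 0.07 and Mrps18c by 0.20 ± 0.09, with adjusted p = 0.654 and 0.656. In the other direction, Mrps10 differed by -0.33 ± 0.17 (adjusted p = 0.659), with 5.89 against 6.51 at 5 min, 7.88 against 7.91 at 30 min and 6.11 against 6.46 at 60 min.

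With actinomycin D the sign of most members was turned. The median was -0.05 over members, 12 being positive and 44 negative, beside -0.01 over all tested probes with 47.5% positive. By limma, 0 of the members and 0% of all probes were called (1 member and 338 probes at an unadjusted p under 0.05, 0 by the robust estimate). Mrps10 differed by -0.39 ± 0.17 and Mrpl27 by -0.16 ± 0.08 (adjusted p = 0.996 for both). Mrps30 differed by 0.07 ± 0.08 and Mrpl1 by 0.10 ± 0.13 (adjusted p = 0.996 for both). The member median became 0.01 when the Block+ActD array of 5 min was left out.

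The effect of BiC/4-AP with actinomycin D minus that without it was negative in 51 of 56 members and in 6408 of 11792 tested probes. Its median was -0.12 over members and -0.02 over all tested probes. By limma, 0 members and 0% of probes passed again (2 members and 755 probes at an unadjusted p under 0.05, 0 by the robust estimate). The member median ran from -0.19 to -0.061 with 1 array left out, the latter without Block+ActD 5 min, where 15 members were positive. Without the 60 min harvest it was -0.066, and without the 30 min harvest -0.18. Mrps18c gave -0.30 ± 0.13 and Mrps7 -0.22 ± 0.10, both with adjusted p = 0.705. The cytosolic ribosomal proteins had a median of -0.10 (51 of 62 negative) and the oxidative phosphorylation subunits of -0.11 (48 of 57 negative) in this contrast, and the neuronal markers of 0.23 and the microglial markers of -0.36 (8 of 8 negative), whose part was not tested.

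**Figure D5:**
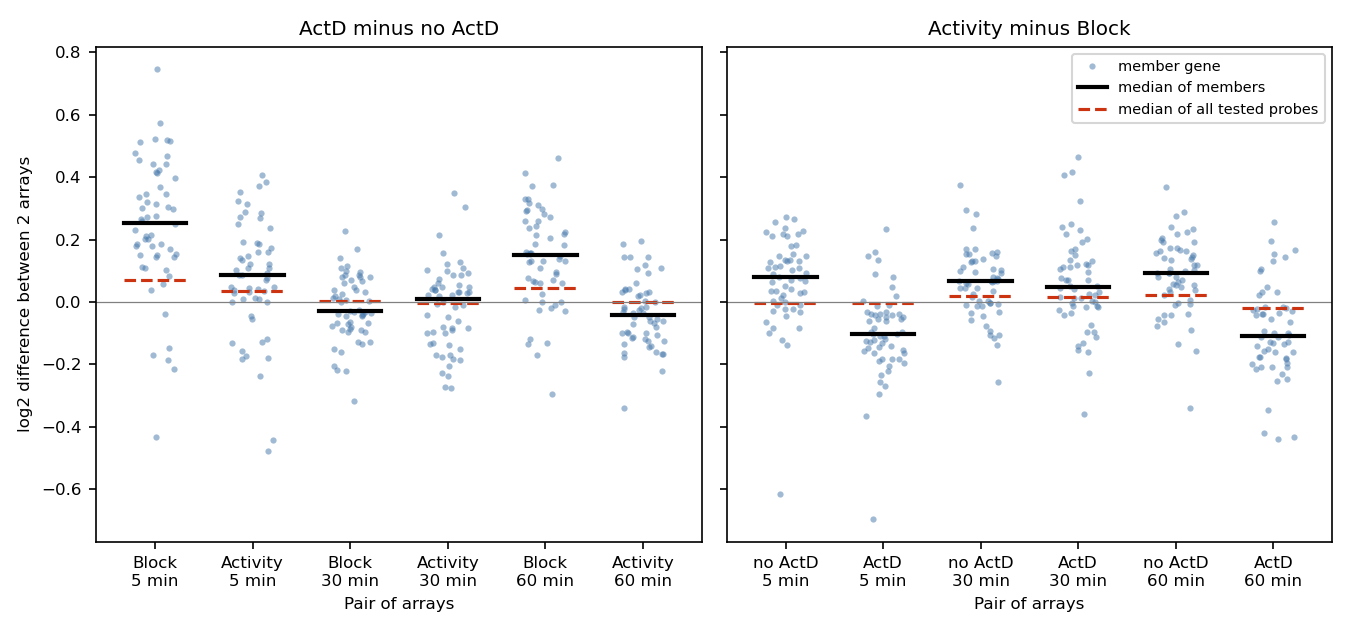
Each point is 1 of the 56 tested members and the y axis its log2 difference between 2 arrays, with actinomycin D minus without it on the left and Activity minus Block on the right, for the pair named on the x axis, and bars mark the medians of members (black) and of all 11792 tested probes (red, dashed). The member medians are 0.25 in Block cultures of 5 min and 0.15 in those of 60 min on the left, and on the right lie between 0.07 and 0.09 in the 3 pairs without actinomycin D.

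By pairs of arrays, the Activity minus Block median over members without actinomycin D was 0.08 at 5 min, 0.07 at 30 min and 0.09 at 60 min, and with it -0.10, 0.05 and -0.11. The sign at 30 min thus differed from the other harvests with the inhibitor and not without it. In all 3 harvests without it, 21 of 56 members were higher with BiC/4-AP, a larger share than the 21% of all tested probes. Mrpl16, Mrpl37 and Mrps10 were lower, a smaller share than the 17% of all tested probes. With actinomycin D, Mrpl1 alone was higher, beside 13% of all tested probes. In the other direction 12 of 56 members were lower, Mrps10 among them, a larger share than the 13.6% of all tested probes.

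A z-fold after the study's methods was also computed. Those methods name no log step, so the one used here was a choice. Intensities scaled to equal totals were log-transformed and expressed as z-scores on each array, and the Activity minus Block difference was divided by its SD over probes to give a z-fold, with 1.4 in the same direction with and without actinomycin D as the threshold. It compares 1 array with 1 array and carries no test. At 5 min 63 probes were past the threshold, and 86 with the threshold of 1.3 behind the study's gene ontology lists. The study reports far more genes, so its counts were not reproduced here. Among 10040 probes with detection p under 0.1 on all 12 arrays, 56 of which were members, 1 member was past the threshold at each harvest. Mrps10 was downregulated at 5 min, with a z-fold of -2.20 without actinomycin D and -3.01 with it, beside 0.627% of probes past the threshold in either direction, 0.329% downwards and 0.299% upwards. At 60 min it was past it again, at -1.48 and -1.49 (0.329% of probes in either direction, 0.189% downwards and 0.139% upwards), and at 30 min it read -0.21 and -0.10. The deposited intensities of Mrps10 at 5 and 60 min were 96.0 to 142.6, beside array medians of 60.5 to 73.5. Both of its crossings of the threshold thus rest on a dim signal, and at 30 min, where it was brighter, it did not cross.

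At 30 min the member past the threshold was Mrpl17, at 1.61 and 1.92, beside 3.59% of probes in either direction, 0.618% upwards and 2.97% downwards. At 5 min it read 1.04 and -0.50, and at 60 min 1.11 and -0.64, so its direction was shared by the cultures with and without actinomycin D at 30 min only. On linear intensities 0 members were past the threshold at 5 min, and Mrps10 was past it at 5 min with a threshold of 1.3, with detection p under 0.01 on all arrays and on the normalized log2 values.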

How the data were processed

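Total RNA was labelled with biotin and hybridized to Illumina RatRef-12 arrays. The authors deposited the mean bead intensity of each probe and its detection p-value against the negative controls of the array, as summarized in BeadStudio (version not given in the sources used here), without scaling. In the authors' second table each array was rescaled by a constant (0.882 to 1.12), so that all totals of intensity are equal. Symbols came from the platform annotation, and all 59 members matched a gene of assembly GRCr8.

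The members and gene lists were chosen with earlier results of these data known. With limma 3.58.1 in R 4.3.3, intensities were corrected by neqc (normexp from the detection p-values, offset 16, quantile normalization, log2). One fit (lmFit, eBayes with a variance trend) had treatment (4 levels) and harvest (3 levels) as terms, with 6 residual degrees of freedom, and a second added actinomycin D by late harvest, with 5. P-values were adjusted by Benjamini-Hochberg over all 11792 tested probes. The fits were run on simulated data in which harvest effects alone were planted, larger than any tested member difference. That run does not show how smaller effects or the other contrasts are recovered. Named were members past the test (the 15 with the lowest p where more passed), the 3 highest and 3 lowest ranked in each of 7 comparisons, members past the z-fold threshold, members with the largest and smallest ranges, and those not detected. Genes shown per array or with sequences were picked after their values were seen. Alternatives changed background correction, scaling, filter, variance estimate and the arrays or harvests used.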

Additional observations from a re-analysis of the deposited data

Results flagged for a closer look

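In 6 members the effect of actinomycin D differed between the later harvests and 5 min, by the test of the difference itself (limma, adjusted p under 0.05 over all tested probes, 9.3% of which passed). Each value is the mean effect at 30 and 60 min minus that at 5 min, on the log2 scale, from 12 arrays. Mrpl54 gave -0.4571, Mrps34 -0.4348, Mrpl53 -0.4181, Mrpl49 -0.3951 and Mrpl55 -0.3779, with adjusted p between 0.0196 and 0.0499. Mrpl1 gave 0.5891, with adjusted p = 0.00114. All 6 rest on the 4 arrays of 5 min, whose microglial markers summed to 999 to 1654 against 91.2 to 135 later, and the part of those markers was not tested. The 5 negative calls were not made on the table scaled to equal totals, with median scaling or without a variance trend.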

How the results depend on the processing

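No paired analysis was possible because all arrays carry the same single replicate number, which links no arrays, and harvest was a term of the fits instead. The comparison of actinomycin D at 5 min was chosen after seeing the data. For the effect of BiC/4-AP without actinomycin D the member median was 0.043 on the table scaled to equal totals, 0.13 with median scaling, 0.090 without the 30 min harvest and 0.037 to 0.11 when 1 array was left out, and with actinomycin D it was -0.11 to 0.0071 when 1 array was left out, the highest value being 0.007052 and due to Block+ActD 5 min. The count for actinomycin D over all harvests was 0 to 2 with 1 array left out (0% to 3.57% of members, beside 0% to 5.12% of all tested probes). For its late minus early effect, 2 members were called at equal totals (median -0.044), 3 with median scaling (median 0.087, a turned sign), 1 without a variance trend, 1 without the 30 min harvest, 3 without the 60 min harvest and 1 to 7 with 1 array left out. For the later harvests against 5 min, the median was -0.022 at equal totals. The count was 15 without the 60 min harvest (26.8%, beside 36.7% of all tested probes). It was 15 to 30 with 1 array left out (26.8% to 53.6%, beside 40.2% to 48.7%). For 60 against 30 min, the median was 0.11 with median scaling and -0.025 (without Block+ActD 30 min) to 0.041 with 1 array left out, where 2 to 5 members were called. For actinomycin D at 5 min, 5 were called at equal totals, 4 with median scaling (median 0.042), 11 with no filter on dim probes, 6 without a variance trend, 8 without the 60 min harvest and 2 to 21 with 1 array left out. On linear intensities 0 members were past the z-fold threshold at 5 min. The sign turned for Mrpl37 in the effect of BiC/4-AP without actinomycin D (0.025, median scaling), for Mrps27 (-0.047 to 0.23 with 1 array left out, the lowest without Block+ActD 30 min, and -0.030 without the 30 min harvest) and Mrpl1 (-0.038, without Block+ActD 5 min, to 0.22) with it, for Mrpl47 (-0.023 without the 60 min harvest) and Mrps2 (-0.026, without Activity+ActD 5 min, to 0.17) in the interaction, for Mrpl32 in the effect of actinomycin D (0.018 without the 5 min harvest), and for Mrps10 in the later harvests against 5 min (-0.069 without the 30 min harvest). The cause was not tested. Signal over background left Mrpl14, Mrpl30 and Mrps31 without a usable value, and 1 array per group gives no spread within a group.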
